A study of Drosophila melanogaster with 3 samples.

Results

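InR and E2f are neighbouring growth genes on arm 3R of the Drosophila melanogaster genome. The results below describe Yorkie (Yki) binding in a 90 kb window that holds them, 3R:17395000-17485000 of the dm3 build. All listed peaks with a midpoint inside the window were taken as members, which gave 25 of the 1008 peaks on 3R and of the 3990 in the whole list. Members were thus selected on the positions in the deposited peak list, and the window was chosen with results of the same list and track known. Its peak number and its place among other windows are therefore descriptions, and no test was made on them.

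InR encodes the insulin receptor, a receptor tyrosine kinase that passes the nutrient signal of insulin-like peptides to PI3-kinase, Akt and Tor and so controls cell and body size. E2f, now called E2f1, encodes the activating E2F transcription factor, which with its partner Dp drives genes of DNA replication and S phase and is held back by the retinoblastoma protein Rbf. Yki is the coactivator at the end of the Hippo pathway, which limits organ growth. It does not bind DNA itself and is brought to chromatin by DNA-binding partners such as Scalloped. When Hippo signalling is low, Yki enters the nucleus and raises expression of growth and survival genes.

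The series held 2 libraries from chromatin immunoprecipitated with an anti-Yki antibody and 1 input library made without antibody. All came from formaldehyde-fixed cells of S2, an established line derived from Drosophila embryos, with no genetic change or treatment named in the labels. In 1 label field, the description, the ChIP libraries are called GAF ChIP and the input Yki ChIP, all from embryos. The other labels disagree with that field and give S2 cells, with Yki as the target of the ChIP. They were used for the groups. The deposited files give 1 list of peaks and 1 density track of ChIP with input subtracted, both taken to cover the ChIP libraries together. No library has a value of its own, so no value below has a replicate error.

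Gene names and their order come from the RefSeq table of Release 6, which is another build, and no coordinates were taken from it. In that table InR (Dmel_CG18402) is followed directly by E2f1 (Dmel_CG6376) among the protein-coding genes, with CG15498 before InR and Archease after E2f1. The long noncoding RNAs Irar and CR44034 start between the starts of InR and E2f1. The microRNA genes mir-998 and mir-11 and 3 noncoding RNAs start between the starts of E2f1 and Archease. No annotation or sequence of dm3 was used here. Peaks are given by position, no peak was assigned to InR, to E2f or to a promoter, and whether the window holds each gene whole was not checked.

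The density is a sum of smoothed tags. Isolated bumps in the track, stretches of at most 17 samples with density within 0.001 of 0 on both sides, showed what 1 tag is worth. The most frequent bump above 0 (1153 of 3007 bumps within 2% of its sum) was a Gaussian with a fitted height of 1.00 and an SD of 200.0 bp, for the 5th and the 95th percentile of bumps alike. Density is therefore given in ChIP tag equivalents, where 1 tag adds 1 at its own position. The most frequent bump below 0 had 0.36 of that sum, taken as the weight of 1 input tag. From this scale a height h has a counting SD of at least the square root of (h divided by the square root of 2), which is 21.3 for a height of 643. These SDs are lower bounds, cover counting error only and leave out the error of the subtracted input. Tags were counted without molecular identifiers, so some may be copies of 1 molecule. The number of reads in each library is unknown.

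Yki density was above 0 over most of the window and above 50 over 37.8% of it. Its 900 samples, 1 for each 100 bp, had a mean of 62.01 and a median of 37.7, and ran from -104 to 643. Over the whole of 3R the mean was -0.61 and the median was 0. The window summed to 11197 net ChIP tags (counting SD at least 106), or 124 per kb. Density was above 0 at 777 samples (86.3%), against 48.4% of all samples on 3R. Listed peaks held 19.2% of the samples in the window, against 2.21% on 3R, and density reached 100 or more at 16.0% of the samples in the window, against 2.22% on 3R.

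The 25 peaks were numbered along the window in the direction of rising coordinates. For description they were split into a tall and a low set at a gap in their heights, chosen after the heights were seen. Heights, taken as the highest sample in the interval, ran from 396 to 643 for 6 peaks and from 58.05 to 191 for the other 19, with none between. The rest of 3R had peaks in that range, and the upper quartile of its heights, 242, lay inside it. The 6 tall peaks covered 7269 bp and held 5024 net tags, which was 69.8% of the net tags in all 25 peaks.

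The highest peak of the window was peak 15, at 3R:17457513-17459636. It reached 643 (counting SD at least 21.3) at 17459241 and was also the widest, at 2124 bp. It held 1683 net tags, whose square root, 41.02, is only a rough counting SD, since tags near its edges count in part. Its mean density was 399, and its flanks, the samples at 2 to 5 kb on either side, averaged 43.6. By height it ranked 43rd on 3R. From its highest sample the density took 943 bp to fall to 50% of the height on the left and 352 bp on the right. The top was flat, however: 300 bp to the left of that sample the density was still 626, within 1 counting SD of 643. The position of the summit, and with it this asymmetry, is therefore uncertain.

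Peak 14, at 3R:17456070-17457072, stood 440 bp to the left of it. It reached 396 (counting SD at least 16.7) and was much narrower, with a width at 50% of its height of 636 bp. Between the summits of peaks 14 and 15 the density dropped to 63.2, which is 16.0% of the height of peak 14.

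A second tall pair stood near the right end of the window. Peak 18, at 3R:17476603-17478031, reached 623 (counting SD at least 20.98) over 1429 bp, with a mean of 368 in the peak and 57.5 in its flanks. Peak 19, at 3R:17478333-17479537, reached 488 (counting SD at least 18.6) over 1205 bp, with a mean of 321 in the peak and 65.2 in its flanks. Their summits lay 1400 bp apart and the density between them went down to 121, or 24.9% of the height of peak 19. Peaks 15, 18 and 19 were both the widest 3 and the highest 3 of the window, and they held 29.4% of its density above 0 on 5.22% of its samples.

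The remaining tall peaks stood apart from these pairs. Peak 6, at 3R:17430914-17431796, reached 447 (counting SD at least 17.8), with a mean of 333 in the peak and 5.89 in its flanks, the lowest flanks of any peak in the window. A smaller peak 7 of 149 lay 440 bp to its right. Peak 11, at 3R:17443936-17444560, reached 410 (counting SD at least 17.03), with a mean of 307 in the peak and 33.5 in its flanks. It was the narrowest of the tall peaks, with a width of 583 bp at 50% of its height.

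The order of heights was only partly resolved. Peaks 15 and 18 differed by 20.4, less than the counting SD of the difference, which is at least 29.9. Peaks 11 and 14 differed by 14.0, against at least 23.9. Between peaks 18 and 19 the difference was 134.9, against a counting SD of at least 28.02, and between peak 14 and the next, peak 2, it was 205, against at least 20.4. Of the 24 neighbouring pairs in the order of heights, 16 differed by less than this counting SD. Most of these were among the low peaks.

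**Figure D1:**
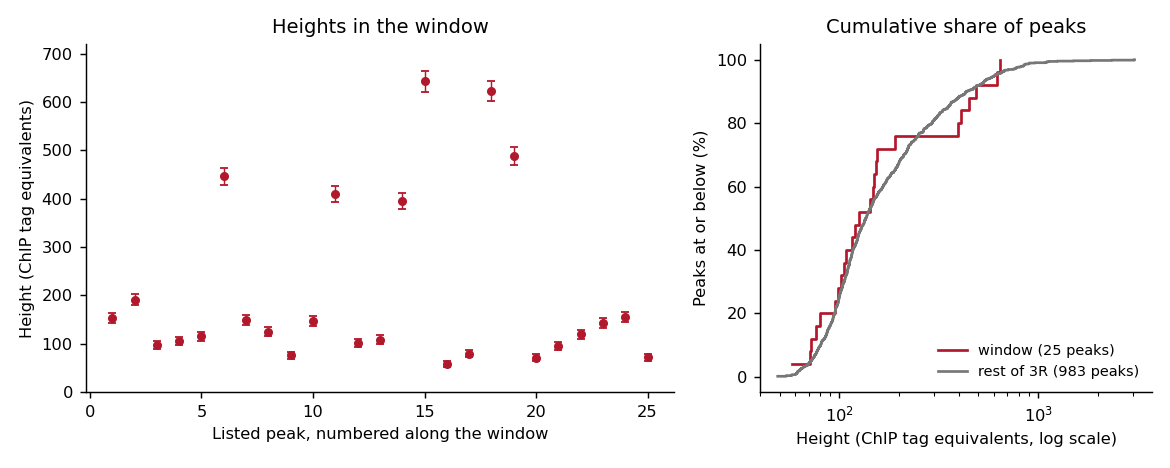
Left, height of each listed peak in ChIP tag equivalents, numbered along the window, with bars of 1 counting SD (a lower bound). Right, cumulative share of peaks by height on a log axis, for the window (red, 25 peaks) and the rest of 3R (grey, 983 peaks). The 6 tall peaks lie at 396 or more and all others at 191 or less, and the curves run close together apart from the step where the window has no peak.

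In height and width the peaks were much like those of the arm. Of the 25 peaks, 6 (24%) reached 300 or more, against 19.1% of all peaks on 3R. A height under 100 was found for 7 (28%), against 25.5% on 3R. The median height of the whole list, 135, was reached by 12 (48%), against 50.3% on 3R. The median height was 125 in the window and 135.9 on the rest of 3R, with quartiles of 97.8 and 191 in the window and of 99.7 and 242 on the rest of 3R. The highest peak on the rest of 3R reached 3052. Widths ran from 288 to 2124 bp with a median of 548 bp, against 449 bp on 3R, and 4 peaks (16%) spanned 1000 bp or more, against 15.7% on 3R. Wider peaks were taller (Spearman rho = 0.79 over the 25 peaks, which share libraries and smoothing). Width and height of a peak come from the same pooled libraries and are not independent measures, so this rho is not read as a trait of the window.

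The tall peaks were wider than a single smoothed tag, as any sum of such tags at differing positions is before input is subtracted. One tag has a width of 471 bp at 50% of its height, while the 6 tall peaks had widths from 583 bp (peak 11) to 1295 bp (peak 15), with a median of 769.9 bp. For the 187 peaks of 300 or more on the rest of 3R the median was 666 bp and the quartiles were 589 and 804 bp. Only peak 15 and peak 19, at 824 bp, lay above the upper of these quartiles.

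**Figure D2:**
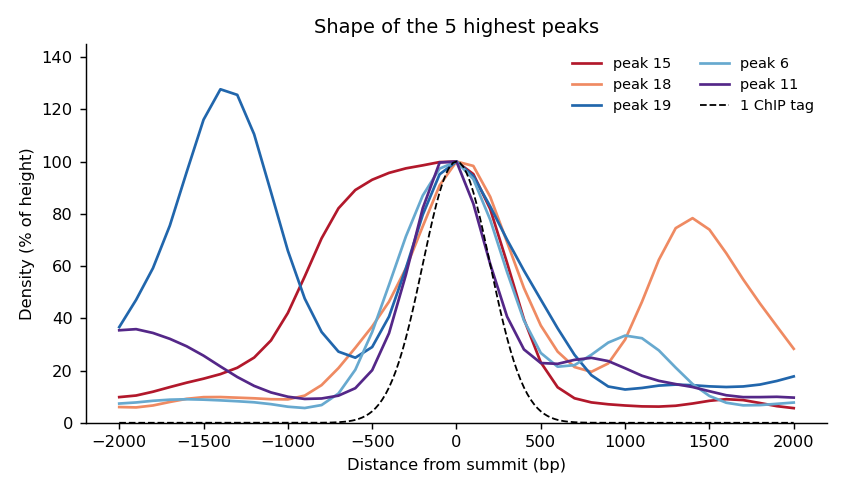
Density as a percentage of the height (y axis) against distance from the summit in bp (x axis) for the 5 highest peaks, with the profile of 1 ChIP tag dashed. Peak 11 is the narrowest, peak 15 has a flat top that extends to the left of its highest sample, and peaks 18 and 19 appear beside each other 1400 bp apart.

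The low peaks were often parts of broader rises. Peaks 20 to 25 followed peak 19 to the right, between 17479935 and 17483363, with heights from 71.3 to 154.9 and gaps of 81 to 232 bp between neighbours. Between peaks 21 and 22 and between peaks 24 and 25 the density had no dip below the lower summit. Between peaks 22 and 23 it dipped only to 99.8% of it. In the left part of the window peaks 2 and 3, with heights of 191 and 97.8, were joined in the same way, with a dip to 96.5% of the lower height. Peak 4, of height 106, followed 597 bp further on. Of the 24 gaps between neighbouring peaks, 11 were 500 bp or shorter, against 142 of the 1007 gaps on 3R. Joining the peaks across these 11 gaps left 14 regions. In 6 of those 11 close pairs the density stayed above 90% of the lower height, and so did 64.1% of the 142 close pairs on 3R.

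Of the low peaks, numbers 1, 4, 5, 8, 9, 10, 13, 16 and 17 lay more than 500 bp from any other listed peak. Peak 1, the first of the window at 3R:17407323-17408214, reached 153 with flanks of 28.3. Peak 5, at 3R:17425322-17425815, reached 115 with flanks of 23.6. Peak 8 reached 125, peak 10 reached 147 and peak 13 reached 108. The lowest of the 25, peak 16 at 3R:17460677-17460972, reached 58.05 (counting SD at least 6.41), only 1040 bp from the tall peak 15.

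A smaller share of peaks exceeded their flanks in the window than on the arm. The mean density lay above that of the flanks 2 to 5 kb away for 17 of the 25 peaks (68%), against 94.2% on 3R. The 8 that did not were peaks 9, 16 and 20 to 25. Their flanks held other listed peaks, but so did those of some peaks that exceeded theirs, such as peaks 8, 15 and 18. When samples in listed peaks were left out of the flanks, all 25 lay above them, as did 99.3% on 3R. Peak 25 did so by only 0.67. The median difference from the flanks was 62.5, against 110.2 on 3R, and the median flank was 58.4, against 13.9 on 3R.

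Between the peaks, density was above 0 at most but not all samples. At the 466 samples of the window over 1 kb from any listed peak the median was 16.7 (quartiles 0 and 33.3). The median of such samples on 3R was -1.81 (quartiles -22.3 and 12.5). These samples were above 0 in 75.5% of cases in the window and in 44.98% on 3R. Rises to 50 or more that touched no listed peak were found at 8 places in the window, against 3.16 for each 90 kb of 3R, and none of them reached 100. The highest of these, 63.3, lay at 17447341.

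Troughs were few. At 3 places the density fell to -50 or below, and the other 308 windows of 3R had a median of 9 (quartiles 5 and 13). A number as low as 3 was found in 43 of those windows. The deepest, -104 at 17451441, lay 0.97 kb from the midpoint of peak 13. Another, -80.1 at 17449041, lay close to it, and both fell in the stretch between peaks 12 and 13. The third, -61.6 at 17399641, lay left of the first peak.

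The peaks were spread unevenly along the window. In steps of 10 kb, the last step held 8 peaks and a mean density of 149, and the step from 17455000 held 4 peaks and a mean of 143.9. The first step, from 17395000, held no peak and a mean of 2.71. The step from 17465000 held no peak either, with a mean of 10.3; it lies in the longest gap of the window, 11888 bp between peaks 17 and 18. The step from 17445000 held 1 peak and a mean of 17.1. In the others the mean ran from 48.5 to 72.2 with 1 to 5 peaks each.

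A long stretch without peaks lay to the left of peak 1. The last peak before the window ended at 17272434, so that 134.9 kb without a listed peak preceded peak 1, against a median gap of 6.80 kb on 3R. Of the 1007 gaps on 3R, 50 were at least as long. On the right, peaks continued past the edge of the window. The last peak inside, peak 25, had a height of 71.7, and the first outside began 365 bp past the edge with a height of 77.7. A further 2 peaks, of 184 and 53.4, followed up to 17487708. From peak 1 to there, 28 peaks lay within 80.4 kb, and 57.5 kb without a peak came next. At least as long as this right gap were 140 of the 1007 gaps on 3R. Chaining peaks with midpoints less than 10 kb apart split the 28 peaks into 17 over 57.4 kb and 11 over 11.1 kb. The gap of 11888 bp lay between them.

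**Figure D3:**
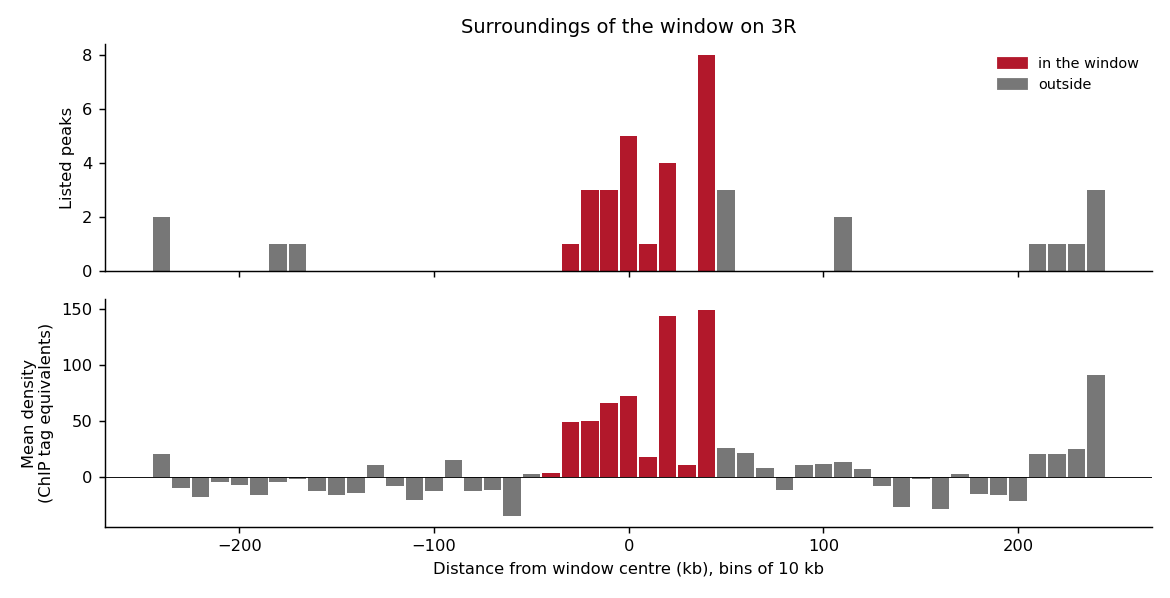
Listed peaks (top) and mean density in ChIP tag equivalents (bottom) in bins of 10 kb against distance from the window centre in kb. Bins in the window are red and bins outside are grey. The bins left of the window hold no peak for over 100 kb, and the last bin of the window has the most peaks, 8.

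The windows of 90 kb next to the InR and E2f window held fewer peaks and had lower mean densities. The InR and E2f window had 25 peaks and a mean density of 62.01. The one before it held 0 peaks and had a mean of -8.52, and the one after it held 5 peaks and had a mean of 8.22. Those 5 include the peaks that continue past the right edge up to 17487708.

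The window was compared with 308 other windows of the same size on 3R, counted on from its own edges. It was near the top in the number of peaks and in mean density, and less so in the height of its highest peak. The other windows had a median of 2 peaks (quartiles 1 and 5, highest 23), and none had 25. Mean density was higher in 1 of them, at 63.7, and the share of samples above 0 in 2. The median over samples more than 1 kb from peaks was as high in 7. A highest density of 643 or more was found in 31 of them (10.1%). Over all 308, the median of the highest density was 205 and the upper quartile was 412. Windows are not replicates, and these ranks describe a window that was not drawn at random.

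**Figure D4:**
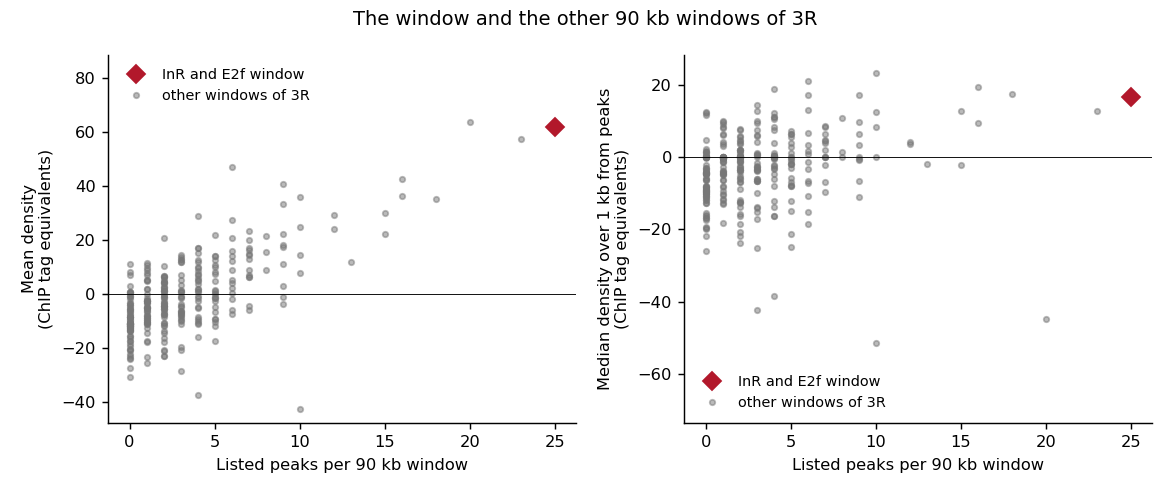
Mean density (left) and median density at samples over 1 kb from any peak (right), both in ChIP tag equivalents, against the number of listed peaks in each 90 kb window of 3R. The red diamond is the InR and E2f window and grey points are the other 308 windows. The diamond has the most peaks, 25, and its mean is exceeded by 1 window.

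Of the other windows, the 2 richest in peaks were set beside it. The window at 3R:25585000-25674999 held 20 peaks and had the higher mean, 63.7, but it spanned densities from -633 to 2333. In the InR and E2f window 86.3% of samples were above 0, and in that one 51.2%. The window at 3R:5875000-5964999 held 23 peaks with a highest density of 899, a mean of 57.3 and 75.9% of samples above 0. In several measures it lay close to the InR and E2f window. The median density was 37.7 in the InR and E2f window and 36.9 in that one, the share of samples above 50 was 37.8% and 40.1%, and listed peaks covered 17183 bp and 16449 bp. The 3 windows nearest to it in ranks of peak number, covered length, highest density and mean density were 3R:10105000-10194999, 3R:5155000-5244999 and 3R:9835000-9924999. They held 16, 12 and 16 peaks, with highest densities of 640.95, 687 and 533 and means of 36.1, 29.4 and 42.7. Density in the last of these was above 0 at 87.9% of samples.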

How the data were processed

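Samples were grouped by their titles into 2 Yki ChIP libraries and 1 input library. Per the submitters' processing notes the build was dm3 and the tools were Bowtie, BWA and CASAVA 1.7.0, with no role stated for any. No source used here names the peak caller. A peak list with chromosome, start and end only was deposited, with a density score of 1 value per 100 bp, which per the file headers is smoothed and background-subtracted. The header joins 2 library codes and 1 input code that match no label; they were taken as these 3 libraries. Starts in the list were raised by 1.

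A sample belonged to a peak or window if its centre lay inside. Flanks were 2 to 5 kb from a peak. Windows of 90 kb with all 900 samples were compared by rank. Values were computed in numpy 2.4.6 and pandas 2.3.3, rank correlations in scipy 1.17.1 and figures in matplotlib 3.10.9 (Python 3.11.15), and the functions were tested on simulated data.

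The window, its members and the measures were chosen with earlier results of these data known. Full values are given for the 5 highest and 3 widest peaks, and for the other windows named by rank, by number of peaks or by place; other peaks singled out were chosen after their values were seen. Planned work on promoter motifs and on lists of insulin and E2F pathway genes was not run, since no dm3 annotation or promoter sequence was used here.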

Additional observations from a re-analysis of the deposited data

How the results depend on the processing

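Taking any overlap with the window left the number of peaks at 25. Joining intervals within 500 bp gave 14, and keeping only the taller peaks, those no lower than the list's median height, gave 12; both can only lower the number. The median of peak minus flank density was 76.4 with flanks 5 to 10 kb away (23 of 25 peaks above them, or 92%, against 96.5% on 3R) and 76.5 with samples in listed peaks left out of the flanks, against 62.5. Mean density of the window was 13.2 at samples over 1 kb from any peak, 47.2 for a window of 120 kb and 62.4 for one of 60 kb. The share of other windows with as many peaks, 0%, became 0.33% (1 of 307) with windows counted from the start of the arm, 0.14% (4 of 2764) with windows sliding by 10 kb, 0.46% (6 of 1316) over 2L, 2R, 3L, 3R and X, 0.65% with joined intervals and 0.32% with the taller peaks. The share with as high a median density away from peaks, 2.27%, became 1.30% with windows from the start of the arm and 0.97% with the taller peaks. For mean and highest density these shares moved by less than 1.5 times. At a size of 100, 1 region below 0 and 0 regions above 0 without a listed peak were found, against 3 and 8 at 50. Alternatives on promoters were not run. For values whose change the construction does not fix, the cause was not tested. Libraries could not be left out in turn, and the depth of each is unknown. No paired analysis was possible because ChIP and input are joined in 1 track.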
